A study of Mus musculus with 9 samples.

Results

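Expression of 10 genes of transforming growth factor beta (TGF-beta) signalling was described in mouse heart across 3 groups of 3 RNA-seq libraries. The genes were chosen by name, with earlier results of these data known. They were the ligands Tgfb1, Tgfb2, Tgfb3, Inhba and Bmp4, the latency protein gene Ltbp1, the receptor genes Tgfbr1, Tgfbr2 and Tgfbr3, and the feedback inhibitor gene Smad7. All 10 were found among the 16873 genes with a value in every library, and all 10 passed the filter that left 12485 genes for testing, a mean of at least 1 FPKM (read fragments per transcript length, relative to all fragments mapped in that library) over the 9 libraries. The first group was Sting-/- mice given doxorubicin (Sting-/- DOX), the second was wild-type mice given doxorubicin (WT DOX) and the third was wild-type mice given saline (WT saline). Doxorubicin is an anthracycline chemotherapy drug that damages the heart, and the study used a low-dose, chronic model. Sting1 encodes STING, the adaptor that relays the signal of the cytosolic DNA sensor cGAS. The labels give no detail of the Sting allele or of the drug schedule, age or sex. No Sting-/- mice given saline and none of the other mutant mice of the study were analysed here, so what the missing gene does by itself cannot be told apart from what it does under doxorubicin. The labels do not say that each library came from a separate mouse, so p-values measure the spread between libraries, which may be technical.

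TGF-beta ligands are secreted in a latent form, bound to their own propeptide and to latent TGF-beta binding proteins such as the Ltbp1 product, and are released by integrins, proteases and thrombospondin. Free ligand binds the type II receptor (Tgfbr2), which phosphorylates the type I receptor (Tgfbr1), which in turn phosphorylates SMAD2 and SMAD3. These enter the nucleus with SMAD4 and induce matrix genes together with inhibitors that limit the signal, Smad7 among them. In the heart the pathway is best known for turning fibroblasts into matrix-producing myofibroblasts after injury.

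Promoters of 3 members are shown here. Tgfb1 and Tgfb2 both rose in WT DOX hearts, while between the DOX groups Tgfb1 differed and Tgfb2 passed no test, and Inhba had the largest fold change of the members in WT DOX hearts. The windows run from 250 bases before to 50 bases after the start of the gene, from RefSeq on GRCm38.p6, and are written 5′ to 3′ on the strand of the gene. Capitals mark CAGAC, known as the SMAD-binding box, and the core promoter element TATAAA. The Tgfb1 window lies at chr7:25686752-25687051 on the plus strand, that of Tgfb2 at chr1:186705940-186706239 on the minus strand and that of Inhba at chr13:16011601-16011900 on the plus strand.
Tgfb1: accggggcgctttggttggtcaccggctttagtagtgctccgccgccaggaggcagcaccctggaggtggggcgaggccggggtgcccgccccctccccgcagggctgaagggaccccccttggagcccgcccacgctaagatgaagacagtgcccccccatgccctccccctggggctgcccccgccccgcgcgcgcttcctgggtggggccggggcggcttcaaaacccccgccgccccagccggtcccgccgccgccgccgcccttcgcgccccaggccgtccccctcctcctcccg
Tgfb2: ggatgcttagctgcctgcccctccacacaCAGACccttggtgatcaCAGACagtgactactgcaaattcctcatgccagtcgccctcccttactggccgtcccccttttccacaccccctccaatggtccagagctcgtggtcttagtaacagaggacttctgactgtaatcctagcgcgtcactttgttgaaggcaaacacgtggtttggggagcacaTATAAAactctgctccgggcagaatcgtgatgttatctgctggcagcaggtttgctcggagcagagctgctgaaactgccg
Inhba: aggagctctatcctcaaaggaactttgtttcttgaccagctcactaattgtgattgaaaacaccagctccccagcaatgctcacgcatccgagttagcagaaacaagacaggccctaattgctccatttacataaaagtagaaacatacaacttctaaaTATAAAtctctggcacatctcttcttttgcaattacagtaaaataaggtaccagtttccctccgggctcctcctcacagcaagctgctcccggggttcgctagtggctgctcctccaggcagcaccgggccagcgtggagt

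The Tgfb1 window was 77.0% G and C and held none of the motifs searched. At 54.3% and 47.7%, the Tgfb2 and Inhba windows lay nearer to the median of 52.7% over all 32851 promoters of the table. The Tgfb2 window held TATAAA starting 31 bases before the gene start, and CAGAC starting 221 and 204 bases before it, and the Inhba window held TATAAA starting 91 bases before. Of the 10 genes, 7 had an entry, with 9 windows between them. CAGAC was found on either strand in 5 of the 9 windows, against 49.6% of all promoters. The AP-1 motif TGANTCA was in 0 of the 9, against 7.81% of all promoters, the cyclic AMP element TGACGTCA in 1, against 1.79%, and TATAAA in 2, against 13.6%. Both strands were searched for each motif, no motif shares a match with another here, and a match describes letters and not a bound site.

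Sting1 was 0.06, 0 and 0 FPKM in the Sting-/- DOX libraries, against 17.5, 17.96 and 17.8 FPKM in WT DOX hearts and 5.10, 5.43 and 5.93 FPKM in WT saline hearts, as the genotype labels state. Libraries of 1 group correlated at Pearson r of 0.9948 to 0.9969 across genes on log2(FPKM + 1). Sting-/- DOX libraries stood apart from WT DOX libraries, at r of 0.848 to 0.852, and from WT saline libraries, at 0.770 to 0.777, and WT DOX libraries met WT saline libraries at 0.936 to 0.943. Heart muscle genes such as myosin and troponin were present in every library, and the 12 cardiomyocyte markers summed to 10913 to 11477 FPKM in Sting-/- DOX hearts, 50257 to 53262 FPKM in WT DOX hearts and 78204 to 79375 FPKM in WT saline hearts. Markers of cartilage and bone summed to 155.7 to 166.4 FPKM in Sting-/- DOX hearts, 2.64 to 3.06 FPKM in WT DOX hearts and 1.16 to 1.73 FPKM in WT saline hearts, and those of valves and elastic matrix, stroma and red blood cells were also highest in Sting-/- DOX hearts, with values given after the pathway lists. How the hearts were dissected is not given in the sources used here, so a difference in the tissue sampled cannot be told apart from the genotype in any comparison with Sting-/- DOX hearts. Depth could be estimated only roughly from the steps of low FPKM values, at 7800000 to 8100000, 12500000 to 13100000 and 10800000 to 11200000 fragments in the Sting-/- DOX, WT DOX and WT saline libraries.

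**Figure D1:**
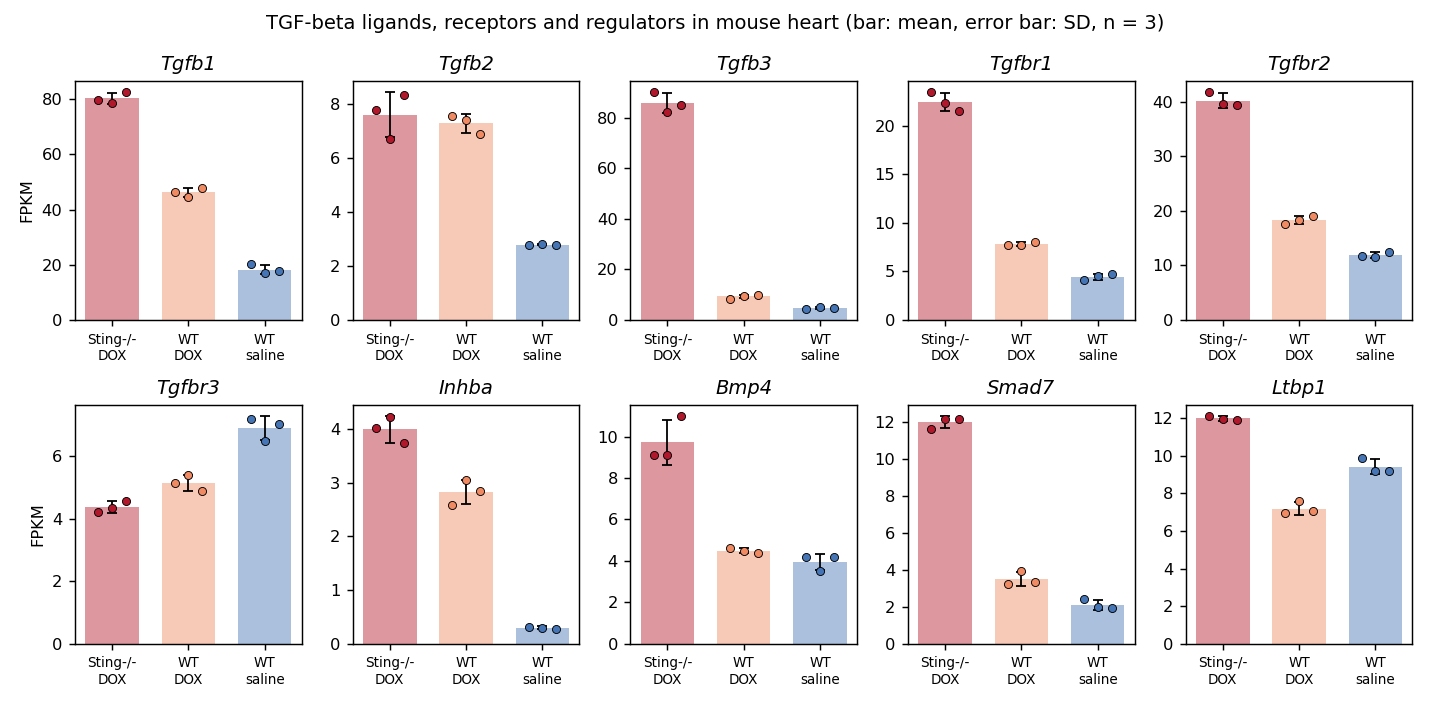
FPKM of the 10 TGF-beta genes in each of the 9 libraries, as points over bars for the group mean with error bars for the SD (n = 3). Tgfb3 stands at 82.4 to 89.9 FPKM in Sting-/- DOX hearts, against 8.50 to 9.90 in WT DOX and 4.39 to 4.97 in WT saline hearts, while Tgfb2 overlaps between the DOX groups.

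Of the 10 genes, 7 rose and 2 fell in WT DOX hearts against WT saline hearts, and 1, Bmp4, did not pass the test. Among all genes tested 45.3% were called higher and 21.5% lower in that comparison. Sting-/- DOX hearts against WT DOX hearts had 8 members higher, 1 lower (Tgfbr3) and 1 not called (Tgfb2), where 54.1% of all genes were called higher and 29.7% lower. Between Sting-/- DOX and WT saline hearts, 9 members were higher and 1 lower, where 63.0% of all genes were called higher and 25.9% lower. Calls used limma on log2(FPKM + 1) with a Benjamini-Hochberg adjusted p under 0.05. Inhba had a mean under 1 FPKM in WT saline hearts and so passed the filter through the DOX groups. Without it the counts were 6 higher and 2 lower of 9, 7 and 1 of 9, and 8 and 1 of 9.

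With so large a share of all genes called, the size of a difference says more than its call. The median log2 difference over the members was 0.64 in WT DOX against WT saline, where that over all genes was 0.13. For Sting-/- DOX against WT DOX it was 0.87, with 0.25 over all genes, and in Sting-/- DOX against WT saline it was 1.81, with 0.49 over all genes. Group ranges did not overlap for 10 of 10 members in WT DOX against WT saline (71.7% of all genes), for 9 in Sting-/- DOX against WT DOX (84.8%) and for 10 in Sting-/- DOX against WT saline (89.2%). The comparisons share groups and are not independent of each other. Because the members were chosen with earlier results of these data known, their medians beside those of all genes are descriptive only. The median of all genes depended on the scaling, and so did the balance of calls. Of all genes called in WT DOX against WT saline, 67.8% were higher on FPKM as deposited, 41.2% after median-ratio scaling, 39.2% after quantile normalization and 53.0% with scaling without the 100 most abundant genes. For Sting-/- DOX against WT DOX those shares were 64.6%, 46.7%, 51.4% and 59.9%, and in Sting-/- DOX against WT saline 70.9%, 49.0%, 51.3% and 63.0%. Median-ratio scaling put the median of all genes at -0.09, -0.05 and -0.02 in the 3 comparisons, and quantile normalization at -0.10, 0.02 and 0.03.

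Tgfb1, the TGF-beta isoform of immune and many stromal cells, measured 79.8, 78.5 and 82.4 FPKM in Sting-/- DOX hearts, 46.5, 44.5 and 47.7 FPKM in WT DOX hearts and 20.2, 16.9 and 17.7 FPKM in WT saline hearts. The 3 groups formed separate steps, with the lowest Sting-/- DOX library well above the highest WT DOX library. Tgfb1 rose by 1.30 ± 0.06 on the log2(FPKM + 1) scale (SE, adjusted p = 2.77e-09) in WT DOX against WT saline, a 2.53-fold ratio of mean FPKM. Its further difference in Sting-/- DOX against WT DOX was 0.78 ± 0.06 (adjusted p = 1.02e-07), or 1.74-fold. Across the 9 libraries its level ran most like those of Rps13, Gpx1 and Rab3il1, with Pearson r of 0.9987, 0.9982 and 0.9981 on log2(FPKM + 1). These correlations describe libraries that fall into 3 groups and share their scaling.

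Tgfb2, an isoform with major roles in development of the heart and its valves, measured 7.79, 6.73 and 8.35 FPKM in Sting-/- DOX hearts, 7.58, 7.41 and 6.89 FPKM in WT DOX hearts and 2.77, 2.83 and 2.79 FPKM in WT saline hearts. The DOX groups overlapped and both lay above every saline library. Against WT saline it rose by 1.13 ± 0.07 in WT DOX hearts (adjusted p = 7.64e-08) and by 1.18 ± 0.07 in Sting-/- DOX hearts (adjusted p = 1.19e-08). Between Sting-/- DOX and WT DOX hearts the difference was 0.05, with a 95% interval of -0.11 to 0.22 and an adjusted p of 0.521. That last value depended on the scaling. It was -0.25 (adjusted p = 0.00868) after median-ratio scaling and -0.22 (adjusted p = 0.0167) after quantile normalization. Diaph1, Niban1 and Prmt2 had the levels most like Tgfb2, at r of 0.9967, 0.9951 and 0.9946 over the 9 libraries.

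Tgfb3, the isoform linked in mice to palate closure and in adult tissue to mesenchymal cells, differed most of the 10 between the DOX groups. It measured 89.9, 82.4 and 84.9 FPKM in Sting-/- DOX hearts, 8.50, 9.56 and 9.90 FPKM in WT DOX hearts and 4.39, 4.97 and 4.74 FPKM in WT saline hearts. Each Sting-/- DOX library exceeded every other library several times over. The difference of Sting-/- DOX against WT DOX was 3.07 ± 0.06 (adjusted p = 8.0e-13), a 9.20-fold ratio in which the genotype and the tissue sampled cannot be told apart, beside 0.86 ± 0.06 (adjusted p = 2.2e-07) and 1.98-fold for WT DOX against WT saline. Ppic, Mxra7 and the smooth muscle gene Tagln followed Tgfb3 most closely, at r of 0.9994, 0.9993 and 0.9993.

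FPKM is scaled by transcript length, so the 3 isoforms could be summed within a library. The sum averaged 173.6 ± 5.29 FPKM in Sting-/- DOX hearts, 62.8 ± 1.52 FPKM in WT DOX hearts and 25.8 ± 1.43 FPKM in WT saline hearts (SD, n = 3 each). Tgfb3 made up 49.4% ± 1.18 of the sum in Sting-/- DOX hearts, 14.8% ± 1.09 in WT DOX hearts and 18.3% ± 2.09 in WT saline hearts (SD, n = 3 each). Tgfb1 held 46.2% ± 1.11 in Sting-/- DOX hearts, 73.6% ± 1.02 in WT DOX hearts and 70.8% ± 2.78 in WT saline hearts. For Tgfb2 the shares were 4.39% ± 0.369, 11.6% ± 0.806 and 10.9% ± 0.690 in the same order of groups. Tgfb1 was thus the most abundant isoform in both wild-type groups, and in Sting-/- DOX hearts the ranges of Tgfb1 and Tgfb3 overlapped at the top. The Tgfb3 share was 34.5 percentage points higher in Sting-/- DOX than in WT DOX hearts, without overlap, and 3.49 points lower in WT DOX than in WT saline hearts, also without overlap. An exact two-sided permutation test gave p = 0.1 for each, the smallest it can give with 3 against 3. Between WT DOX and WT saline hearts the Tgfb1 and Tgfb2 shares overlapped, at exact permutation p = 0.2 and 0.3. Of these 9 share comparisons (3 isoforms in 3 comparisons) none can pass 0.05 in this design. A share within a library does not change with the scaling between libraries.

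**Figure D2:**
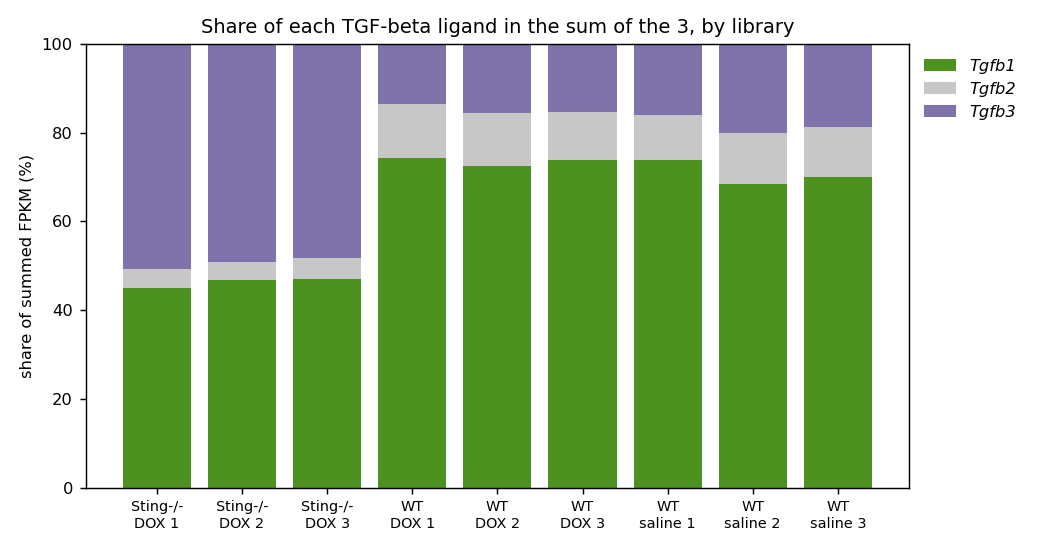
Share of Tgfb1, Tgfb2 and Tgfb3 in their summed FPKM, in percent, as stacked bars for each library of the 3 groups. Tgfb3 holds 48.3% to 50.7% in Sting-/- DOX hearts, 13.6% to 15.6% in WT DOX hearts and 16.0% to 20.1% in WT saline hearts.

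Inhba encodes the activin A subunit, an activator of SMAD2 and SMAD3 through its own receptors. It measured 4.02, 4.22 and 3.73 FPKM in Sting-/- DOX hearts, 2.58, 3.04 and 2.85 FPKM in WT DOX hearts and 0.32, 0.30 and 0.27 FPKM in WT saline hearts. Both DOX groups lay far above saline, where the values are low and the counts of fragments behind them are not given. The rise in WT DOX against WT saline was 1.56 ± 0.08 (adjusted p = 7.42e-09) on the log2(FPKM + 1) scale, which understates low genes, and 9.52-fold as a ratio of mean FPKM. Sting-/- DOX hearts were 0.38 ± 0.08 above WT DOX hearts (adjusted p = 7.19e-04). That call was lost after median-ratio scaling, at 0.12 (adjusted p = 0.191), and after quantile normalization, at 0.08 (adjusted p = 0.336).

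Bmp4, a bone morphogenetic protein that signals through SMAD1 and SMAD5, measured 9.09, 9.12 and 10.99 FPKM in Sting-/- DOX hearts, 4.61, 4.49 and 4.37 FPKM in WT DOX hearts and 4.18, 3.49 and 4.18 FPKM in WT saline hearts. WT DOX and WT saline libraries did not overlap but lay close together, at a difference of 0.15 ± 0.08 with a 95% interval of -0.03 to 0.33 (adjusted p = 0.126). Sting-/- DOX hearts were 0.96 ± 0.08 above WT DOX hearts (adjusted p = 3.4e-07), or 2.17-fold.

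Ltbp1, whose product tethers latent TGF-beta to the matrix, measured 12.12, 11.94 and 11.92 FPKM in Sting-/- DOX hearts, 6.97, 7.58 and 7.05 FPKM in WT DOX hearts and 9.87, 9.22 and 9.21 FPKM in WT saline hearts. It fell in WT DOX against WT saline, by 0.35 ± 0.05 (adjusted p = 1.16e-04), and was 0.66 ± 0.05 higher in Sting-/- DOX than in WT DOX hearts (adjusted p = 1.76e-07). Sting-/- DOX hearts stood 0.32 ± 0.05 above WT saline hearts (adjusted p = 1.20e-04). This last direction turned with the scaling, to -0.23 (adjusted p = 0.00165) after median-ratio scaling and -0.17 (adjusted p = 0.0105) after quantile normalization.

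Tgfbr1, the type I receptor kinase, measured 23.4, 22.4 and 21.6 FPKM in Sting-/- DOX hearts, 7.68, 7.72 and 8.02 FPKM in WT DOX hearts and 4.09, 4.54 and 4.70 FPKM in WT saline hearts. It was 1.41 ± 0.06 higher in Sting-/- DOX than in WT DOX hearts (adjusted p = 3.69e-10) and 0.70 ± 0.06 higher in WT DOX than in WT saline hearts (adjusted p = 7.03e-07). No group overlapped another. Tgfbr2, the ligand-binding type II receptor, measured 41.7, 39.5 and 39.5 FPKM in Sting-/- DOX hearts, 17.6, 18.3 and 19.0 FPKM in WT DOX hearts and 11.8, 11.5 and 12.5 FPKM in WT saline hearts. Its groups were likewise separate, with differences of 1.10 ± 0.05 (adjusted p = 8.67e-10) for Sting-/- DOX against WT DOX and 0.58 ± 0.05 (adjusted p = 8.78e-07) for WT DOX against WT saline. Because Tgfbr1 differed more, the ratio of Tgfbr2 to Tgfbr1 averaged 1.79 ± 0.0323 in Sting-/- DOX hearts, 2.34 ± 0.0499 in WT DOX hearts and 2.69 ± 0.182 in WT saline hearts (SD, n = 3 each). The ratio did not overlap between any pair of groups, at an exact permutation p = 0.1, the smallest possible, for each.

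Tgfbr3 encodes betaglycan, a co-receptor without kinase activity that presents TGF-beta2 to the type II receptor and, as a shed form, can bind ligand away. It was the receptor member that went the other way. Its levels were 4.2, 4.35 and 4.57 FPKM in Sting-/- DOX hearts, 5.15, 5.4 and 4.89 FPKM in WT DOX hearts and 7.19, 6.47 and 7.03 FPKM in WT saline hearts. It fell in WT DOX against WT saline, by 0.36 ± 0.06 (adjusted p = 3.46e-04), and was 0.19 ± 0.06 lower in Sting-/- DOX than in WT DOX hearts, a difference of -0.19 (adjusted p = 0.0141). The smaller of these rested on little. It was -0.16 (adjusted p = 0.0536) without WT DOX replicate 2 and -0.15 (adjusted p = 0.065) after scaling to TPM. Endoglin (Eng), the related co-receptor of endothelial cells, averaged 271.8 ± 10.4 FPKM in Sting-/- DOX hearts, 65.9 ± 1.52 in WT DOX hearts and 56.8 ± 1.2 in WT saline hearts. The ratio of Eng to Tgfbr3 was 62.2 ± 1.14, 12.8 ± 0.911 and 8.25 ± 0.310 in those groups (SD, n = 3 each), also without overlap (exact permutation p = 0.1 for each pair, the smallest possible).

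Smad7, the inhibitory SMAD that TGF-beta induces and that blocks and helps degrade the type I receptor, measured 11.64, 12.19 and 12.19 FPKM in Sting-/- DOX hearts, 3.24, 3.93 and 3.32 FPKM in WT DOX hearts and 2.40, 1.98 and 1.94 FPKM in WT saline hearts. Sting-/- DOX hearts exceeded WT DOX hearts by 1.54 ± 0.08 (adjusted p = 2.83e-09), a 3.43-fold ratio, and WT DOX hearts exceeded WT saline hearts by 0.53 ± 0.08 (adjusted p = 9.26e-05), or 1.66-fold. The inhibitor and the type I receptor it acts on thus differed in the same direction, the receptor by 2.88-fold and 1.76-fold in these comparisons.

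Against WT saline, the differences of Sting-/- DOX hearts were 3.93 for Tgfb3, 2.11 for Tgfbr1, 2.08 for Tgfb1, 2.07 for Smad7, 1.94 for Inhba, 1.67 for Tgfbr2 and 1.12 for Bmp4 on the log2(FPKM + 1) scale, with -0.55 for Tgfbr3. By level, Tgfb1 and Tgfbr2 ranked first and second in both wild-type groups. In Sting-/- DOX hearts Tgfb3 and Tgfb1 came first with overlapping ranges, followed by Tgfbr2 and Tgfbr1, and Smad7 overlapped Ltbp1. In WT DOX hearts Tgfb2 overlapped Ltbp1, and in WT saline hearts Tgfb3 overlapped Tgfbr1 and Tgfbr1 overlapped Bmp4. Inhba was last in every group, with a range that overlapped that of Tgfbr3 in Sting-/- DOX hearts.

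**Figure D3:**
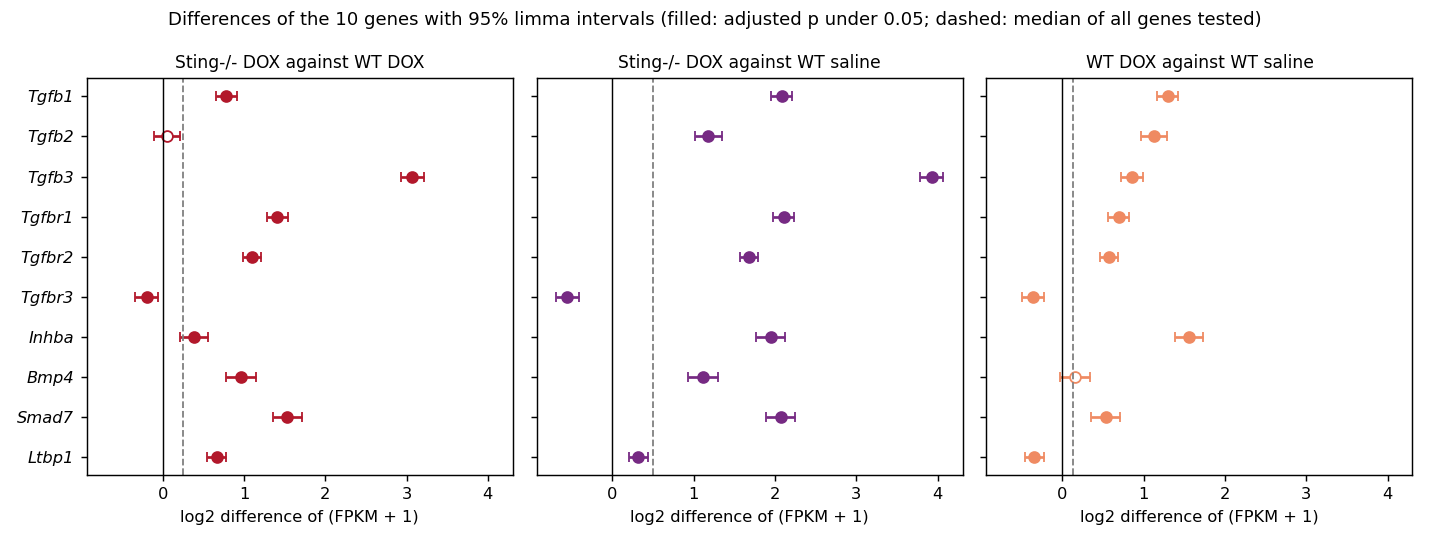
Difference of each TGF-beta gene on the log2(FPKM + 1) scale with its 95% interval, for Sting-/- DOX against WT DOX, Sting-/- DOX against WT saline and WT DOX against WT saline. Filled points had an adjusted p under 0.05 and the dashed line is the median of all genes tested. Tgfb3 reaches 3.07 between the DOX groups, where the Tgfb2 interval of -0.11 to 0.22 includes no difference, and Tgfbr3 lies below 0 in each comparison.

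The rest of the pathway was described in 7 lists, by the same test and with no test of a list. Among all genes tested, 45.3% were called higher and 21.5% lower in WT DOX against WT saline. In Sting-/- DOX against WT DOX these shares were 54.1% and 29.7%, and the counts of each list stand beside them. Of the 18 genes of the list of other ligands 8 could be tested, and 6 rose and 2 fell in WT DOX against WT saline. The stress-induced ligand Gdf15 averaged 14.3 ± 1.16 FPKM in Sting-/- DOX hearts, 16.5 ± 1.95 in WT DOX hearts and 0.613 ± 0.136 in WT saline hearts (SD, n = 3 each). Its difference was 3.43 for WT DOX against WT saline and -0.19 (adjusted p = 0.082) for Sting-/- DOX against WT DOX. Inhbb, the activin B subunit, rose by 2.16 and Gdf6 by 1.83 in WT DOX against WT saline, while Bmp6 fell by 0.43 and the inhibin subunit gene Inha fell by 0.40. Between Sting-/- DOX and WT DOX hearts 4 were higher and 0 lower, 2.10 for Bmp1, 2.07 for Bmp6 and 1.03 for Gdf6 among them. Bmp1 shares the family name but encodes a procollagen protease and is no ligand. Without it 7 ligands were tested, of which 5 rose and 2 fell in WT DOX against WT saline and 3 were higher and 0 lower in Sting-/- DOX against WT DOX. The 5 that rose, Gdf15, Inhbb, Gdf6, Bmp2 and Gdf3, averaged 0.12 to 0.61 FPKM in WT saline hearts. They passed the filter through the DOX groups. With no filter on low values 17 ligands were tested, and 5 rose and 4 fell in WT DOX against WT saline. Between the DOX groups 8 of the 17 were then higher and 0 lower. Bmp6 averaged 29.1 ± 2.81 FPKM in Sting-/- DOX hearts, 6.18 ± 0.971 in WT DOX hearts and 8.66 ± 0.912 in WT saline hearts. With Bmp1 counted, 4 were higher and 3 lower between the DOX groups after either median-ratio scaling or quantile normalization, and without WT DOX replicate 2 the count of lower genes was 1.

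Of 10 other receptor and receptor-associated genes tested, 4 rose and 2 fell in WT DOX against WT saline, and 8 were higher and 1 lower in Sting-/- DOX against WT DOX. The first count was 2 higher and 5 lower after median-ratio scaling and 1 and 5 after quantile normalization, and the second was 7 and 2, and 8 and 2. With scaling without the 100 most abundant genes the first was 2 higher and 2 lower. The list medians were 0.09 and 0.72 in these comparisons, with 0.13 and 0.25 over all genes. Without WT saline replicate 1 or WT DOX replicate 1, 1 fell in WT DOX against WT saline. Acvrl1 encodes ALK1, the endothelial type I receptor. It averaged 48.9 ± 1.70 FPKM in Sting-/- DOX hearts, 11.8 ± 0.371 in WT DOX hearts and 8.45 ± 0.577 in WT saline hearts, with a difference of 1.97 between the DOX groups. Eng differed by 2.03 and Cd109, a TGF-beta co-receptor that inhibits the signal, by 1.43. Bmpr1a, the BMP type I receptor, was lower in Sting-/- DOX hearts, at 10.5 ± 0.119 FPKM against 22.9 ± 0.387 in WT DOX hearts and 21.7 ± 0.294 in WT saline hearts, a difference of -1.06 between the DOX groups. In WT DOX against WT saline the activin receptor gene Acvr2b fell by 0.53, and Acvr2a had a difference of -0.19 that passed the test.

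The list named for latency and activation of TGF-beta had 19 of 20 genes tested. In WT DOX against WT saline 16 rose and 3 fell, with a median of 0.76, and in Sting-/- DOX against WT DOX 15 were higher and 2 lower, with a median of 0.78. The medians over all genes were 0.13 and 0.25. Thbs1, encoding the latent TGF-beta activator thrombospondin 1, averaged 110.0 ± 6.25 FPKM in Sting-/- DOX hearts, 18.1 ± 0.221 in WT DOX hearts and 1.55 ± 0.369 in WT saline hearts. The membrane protease gene Mmp14 averaged 135.1 ± 4.66, 28.1 ± 1.07 and 4.51 ± 0.397 FPKM in the same groups. Mmp9, a protease of neutrophils and macrophages, averaged 1.64 ± 0.350 FPKM in Sting-/- DOX hearts, 10.04 ± 0.279 in WT DOX hearts and 0.15 ± 0.0693 in WT saline hearts, with differences of -2.07 between the DOX groups and 3.26 between WT DOX and WT saline. Its mean over the 9 libraries reached 1 FPKM only through WT DOX hearts, which favours both of these directions. Of 6 neutrophil markers in the data, 5 could be tested and moved likewise. All 5 were higher in WT DOX against WT saline and lower in Sting-/- DOX against WT DOX. Of these, Mmp8 averaged under 1 FPKM in Sting-/- DOX and WT saline hearts. It passed the filter through WT DOX hearts and so could not have been called lower there. Ngp, left out by the filter, went the other way between the DOX groups. It averaged 1.45 FPKM in Sting-/- DOX hearts, 0.183 in WT DOX hearts and 0.08 in WT saline hearts. The 6 markers summed to 79.6 to 92.4, 208.6 to 276.8 and 6.12 to 6.31 FPKM in Sting-/- DOX, WT DOX and WT saline hearts. The part of neutrophils in the Mmp9 values was not tested. Ltbp2, a matrix protein of the Ltbp family, was 3.69 higher in Sting-/- DOX than in WT DOX hearts and Mmp2 3.30 higher. Ltbp4, which like Ltbp1 tethers latent ligand, fell by 0.76 in WT DOX against WT saline, as did the epithelial integrin gene Itgb6, which fell by 0.46. Itgb6 was also lower in Sting-/- DOX than in WT DOX hearts, by a difference of -0.93.

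The list of SMAD transducers also held Zfyve9, Map3k7, Tab1 and Traf6, which encode no SMAD. Its genes differed little in WT DOX against WT saline, with 2 of 9 tested genes higher and 0 lower and a median of 0.09 (0.13 over all genes). The higher ones were Smad1, by 0.41, and the TAK1 adaptor gene Tab1, by 0.22. Median-ratio scaling gave 1 higher and 4 lower, and quantile normalization gave 0 and 5, while 1 was lower without WT saline replicate 2 or without Sting-/- DOX replicate 1 or 3, which share the estimate of spread. Scaling to TPM gave 2 higher and 3 lower, and scaling without the 100 most abundant genes gave 1 and 3. With sample weights, or with only the 2 groups compared, 1 was lower. Smad2 averaged 3.98 ± 0.165 FPKM in Sting-/- DOX hearts, 3.81 ± 0.248 in WT DOX hearts and 3.49 ± 0.227 in WT saline hearts, with no call in any comparison. Between the DOX groups 6 were higher, Map3k7 and Traf6 among them, and 1 lower, or 3 and 3 after either median-ratio scaling or quantile normalization. The 3 with the largest differences were Smad1 at 1.21 and Smad5 at 0.58, both BMP-responsive SMADs, and the shared partner Smad4 at 0.51. The lower one was Zfyve9 at -0.46, whose product presents SMAD2 and SMAD3 to the receptor.

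Of 18 tested feedback inhibitors and antagonists, 9 rose and 2 fell in WT DOX against WT saline. After either median-ratio scaling or quantile normalization 6 rose and 7 fell. With scaling without the 100 most abundant genes 7 rose and 4 fell. In Sting-/- DOX against WT DOX 16 were higher and 2 lower (12 and 4 after median-ratio scaling, 12 and 2 after quantile normalization). Those falling in WT DOX against WT saline numbered 1 without WT saline replicate 1 or 2 or WT DOX replicate 1 or 3. The list medians were 0.18 in WT DOX against WT saline and 1.05 between the DOX groups, with 0.13 and 0.25 over all genes. The activin antagonist Fstl3 averaged 25.0 ± 0.624 FPKM in Sting-/- DOX hearts, 20.1 ± 2.08 in WT DOX hearts and 3.08 ± 0.479 in WT saline hearts. Biglycan (Bgn), a matrix proteoglycan that binds TGF-beta, averaged 1754 ± 101 FPKM in Sting-/- DOX hearts, 363.7 ± 4.38 in WT DOX hearts and 129.1 ± 10.6 in WT saline hearts. Between the DOX groups the BMP antagonist Nbl1 was 2.74 higher and the TGF-beta-induced inhibitor Pmepa1 2.25 higher. The pseudoreceptor gene Bambi averaged 9.54 ± 0.866 FPKM in Sting-/- DOX hearts, 12.7 ± 0.214 in WT DOX hearts and 7.83 ± 0.295 in WT saline hearts, a difference of -0.39 between the DOX groups. Ppm1a, a SMAD phosphatase, fell in both comparisons, at -0.30 and -0.49.

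Known TGF-beta target genes had the largest median of the 7 lists in either comparison, 2.01 in WT DOX against WT saline and 2.10 in Sting-/- DOX against WT DOX. All 24 were tested. In WT DOX against WT saline 20 rose and 0 fell, or 19 and 3 after median-ratio scaling and 18 and 3 after quantile normalization, and 1 fell without WT DOX replicate 2. Between Sting-/- DOX and WT DOX hearts 20 were higher and 3 lower. Timp1, a protease inhibitor, averaged 249.1 ± 9.23 FPKM in Sting-/- DOX hearts, 315.0 ± 7.36 in WT DOX hearts and 2.89 ± 0.811 in WT saline hearts. The collagen cross-linking enzyme gene Lox averaged 270.1 ± 13.4, 34.0 ± 2.88 and 1.02 ± 0.220 FPKM in the same groups. Timp1 was thus among the 3 targets lower in Sting-/- DOX than in WT DOX hearts, and Lox among the 20 higher. Col1a1, the type I collagen chain, was 3.97 higher in Sting-/- DOX than in WT DOX hearts, and Comp and Thbs2, both matricellular, were 5.98 and 4.07 higher. Tgfbi, a TGF-beta-induced matrix protein gene, averaged 55.6 ± 2.78 FPKM in Sting-/- DOX hearts, 100.5 ± 3.10 in WT DOX hearts and 11.1 ± 0.702 in WT saline hearts, a difference of -0.84 between the DOX groups. Of the BMP targets, 2 of 8 rose and 0 fell in WT DOX against WT saline, Id2 by 1.64 and Id3 by 0.60, while either scaling gave 2 higher and 3 lower, and without Sting-/- DOX replicate 1 or 3 there was 1 lower. Between the DOX groups 7 were higher and 0 lower, with 2.44 for Id3, 2.39 for Id1 and 2.23 for Hey1. The BMP target medians were 0.10 in WT DOX against WT saline and 1.93 between the DOX groups, with 0.13 and 0.25 over all genes. Against WT saline, Sting-/- DOX hearts had 24 of 24 TGF-beta targets and 8 of 8 BMP targets higher. Latency genes had 18 of 19 higher, feedback genes 16 of 18 and the ligand list 8 of 8 (7 of 7 without the protease gene Bmp1). The receptor list had 7 of 10 higher and the SMAD list 6 of 9, where 63.0% of all genes were called higher. Their median differences were 0.59 and 0.40, with 0.49 over all genes. After median-ratio scaling the counts for the feedback, ligand, receptor and SMAD lists were 12, 7, 4 and 1, and after quantile normalization 13, 7, 4 and 2. Some of the target and antagonist genes also stand among the marker lists, Col1a1 and Dcn for fibroblasts, Acta2 and Tagln for smooth muscle and Comp for cartilage.

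**Figure D4:**
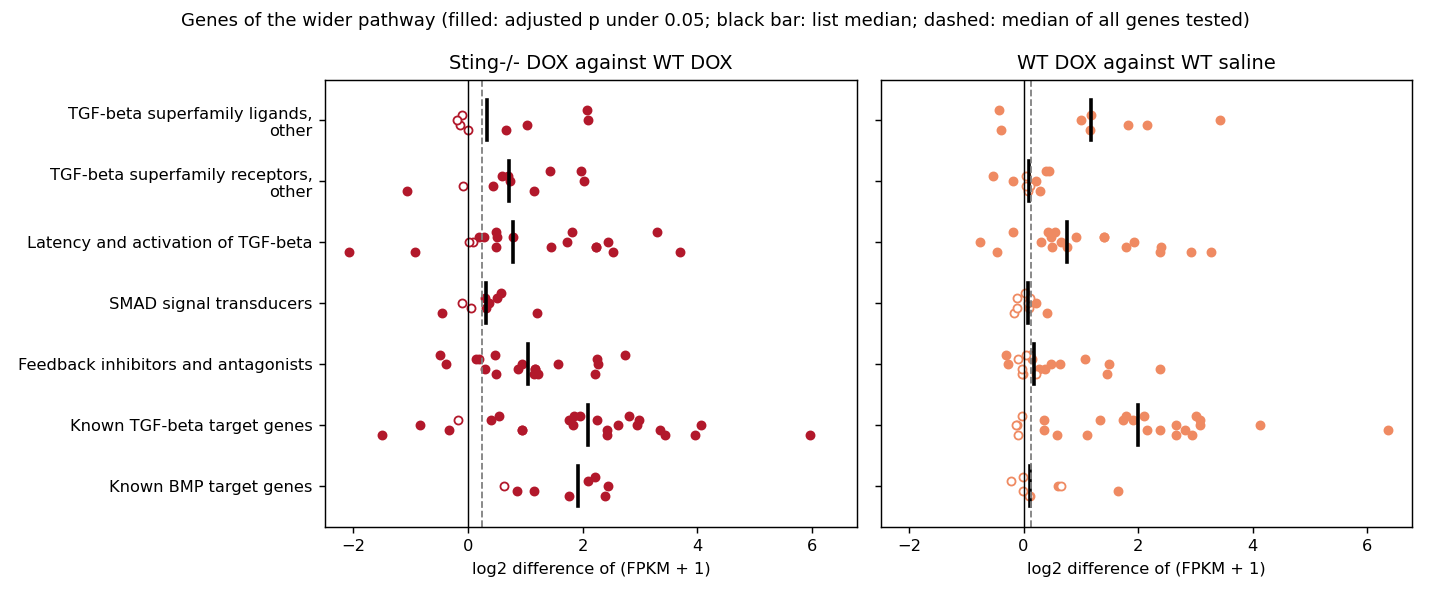
Difference on the log2(FPKM + 1) scale of each tested gene of the 7 TGF-beta pathway lists, as a point filled where the adjusted p was under 0.05, for Sting-/- DOX against WT DOX on the left and WT DOX against WT saline on the right. Black bars are list medians, at 2.10 and 2.01 for the TGF-beta targets, and dashed lines are the medians of all genes, 0.25 and 0.13.

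Markers of several cell types also differed between the groups, not in the same way in each comparison. In Sting-/- DOX against WT DOX, where 54.1% of all genes were called higher and 29.7% lower, all 12 cardiomyocyte markers were lower. There 12 of 12 endothelial, 9 of 12 fibroblast, 8 of 10 smooth muscle and pericyte and 9 of 9 mesothelial markers were higher. So were 5 of 5 tested valve and elastic matrix and 6 of 6 tested cartilage and bone markers. Acan, Col2a1, Comp, Col11a1, Runx2 and Fmod of the last lists averaged under 1 FPKM in both wild-type groups. They passed the filter through Sting-/- DOX hearts and so could not have been called lower there. The same held for the mesothelial markers Msln, Upk1b, Krt8 and Lrrn4 and for the pathway genes Fbn2, Fst, Cdkn2b and Nox4. Fibroblast markers summed to 5405 to 5665 FPKM in Sting-/- DOX hearts, 1121 to 1141 in WT DOX hearts and 1025 to 1055 in WT saline hearts. Most of the Sting-/- DOX sum was Col1a1 and Col1a2, which are also in the TGF-beta target list. Col1a1 averaged 1988, 126.0 and 15.6 FPKM in these groups, and Col1a2 averaged 1463, 142.6 and 26.5 FPKM. The fibroblast markers not called between the DOX groups were Pdgfra, Dpep1 and Wif1. Of the smooth muscle and pericyte markers Abcc9 was lower, at -1.56, and Kcnj8 was not called, at -0.12. Endothelial markers summed to 6176 to 6602, 1231 to 1369 and 1426 to 1537 FPKM, and smooth muscle and pericyte markers to 988.8 to 1055, 288.3 to 301.3 and 366.0 to 413.0 FPKM, in the same order. Mesothelial markers summed to 114.3 to 120.8 FPKM in Sting-/- DOX hearts, 10.3 to 14.1 in WT DOX hearts and 6.01 to 8.46 in WT saline hearts. The valve and elastic matrix sum was 961.2 to 1037, 97.5 to 102.8 and 117.8 to 118.5 FPKM, and of the cartilage and bone markers the bone gene Ibsp was at 0 in both DOX groups. Erythroid genes, of which 5 were tested, were 5 higher between the DOX groups and summed to 8481 to 9701, 1498 to 1638 and 2454 to 2549 FPKM. In WT DOX against WT saline 10 of 12 cardiomyocyte markers were lower and 1 higher, and 11 of 12 macrophage and monocyte markers higher and 1 lower. There fibroblast markers were 6 higher and 3 lower of 12, and endothelial markers 1 and 4 of 12. Smooth muscle and pericyte markers were 3 higher and 5 lower of 10, and mesothelial markers 4 and 2 of 9. Valve and elastic matrix markers were 2 and 2 of 5 tested, and cartilage and bone markers 2 and 0 of 6. All 5 tested erythroid genes were lower. Macrophage and monocyte markers summed to 2778 to 2900 FPKM in Sting-/- DOX hearts, 1604 to 1712 in WT DOX hearts and 432.7 to 484.6 in WT saline hearts. Between the DOX groups these markers were mixed, with 7 of 12 higher and 5 lower in Sting-/- DOX hearts. The lower ones, named after their values were seen, were Ly6c2 at -4.96, Fcgr1 at -1.07, Ccr2 at -0.76, Mrc1 at -0.41 and Cd163 at -0.38, while Lyz2, C1qa and C1qb, which hold most of the sum, were 0.81, 1.43 and 1.26 higher. Markers of T, natural killer and B cells were low throughout, at 9.09 to 11.7, 9.46 to 17.6 and 4.55 to 4.91 FPKM. In bulk tissue, fewer cells of a type and less RNA per cell cannot be told apart, and the part of any cell type in the levels of the TGF-beta genes was not tested.

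**Figure D5:**
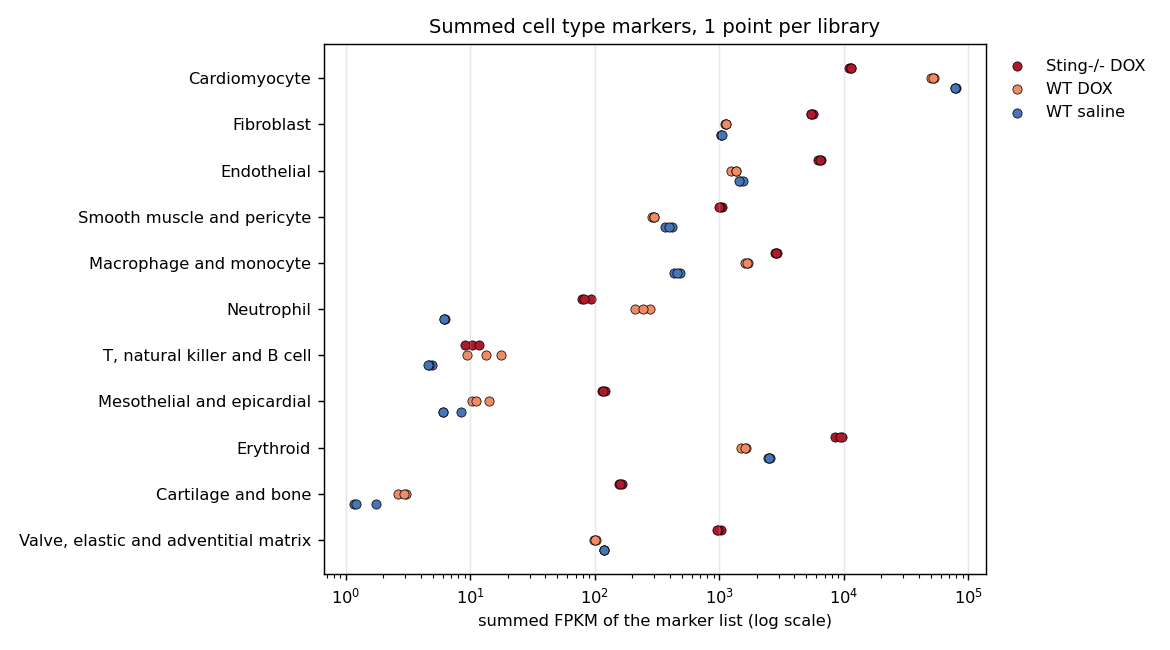
Summed FPKM of the markers of each cell type on a log axis, 1 point for each library, coloured by group. Cardiomyocyte sums are 10913 to 11477 in Sting-/- DOX, 50257 to 53262 in WT DOX and 78204 to 79375 in WT saline hearts, while fibroblast and endothelial sums are highest in Sting-/- DOX hearts.

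The counting of reads is not stated to use strand, and 8 of the 10 genes (all but Tgfb1 and Tgfb3) overlap a noncoding gene or pseudogene in the RefSeq annotation of GRCm38.p6 that has no value here. Reads of such a partner could have been counted for the gene.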

How the data were processed

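The authors deposited FPKM per gene, to 2 decimals, in 1 table per library of total RNA from mouse heart (QIAGEN extraction and MGI library kit, per the labels' protocols). RSEM 1.2.12, HISAT2 2.0.4 and Bowtie2 2.2.5 and the build GRCm39 are listed, without role or order, per the submitters' processing notes. FPKM is relative to the other genes of a library, so abundant genes can shift the rest, and it keeps no counts. The sums were 539287 to 543352 FPKM in Sting-/- DOX, 559998 to 570128 in WT DOX and 552456 to 555425 in WT saline libraries, and the 10 most abundant genes held 8.28%, 11.8% and 16.6% of them on average.

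Entrez gene IDs were matched to symbols with RefSeq tables of GRCm38.p6, used for names, promoters and overlaps only (16825 matched, 48 did not). Depth was estimated from 1917 genes with a single transcript and is approximate. Tests used limma 3.58.1 in R 4.3.3 on log2(FPKM + 1), with a trended prior, all 9 libraries in 1 fit (6 residual degrees of freedom), a mean of at least 1 FPKM, two-sided p-values and Benjamini-Hochberg adjustment over all 12485 genes. The fit was tested on simulated data. Shares and ratios were compared by exact permutation in Python 3.11.15 with scipy 1.17.1.

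Groups and replicate numbers came from the sample titles. Same-numbered libraries did not deviate together, so no pairing was used. The members and gene lists were chosen with earlier results of these data known. Named were all 10 members, Sting1, up to 3 genes with the largest change that passed in each pathway list and comparison with up to 2 passing the other way, and the 3 genes most correlated with each TGF-beta isoform, predicted genes left out. 1 gene that this rule names is not reported here. A few further genes (Smad2, Eng, Bmp6) are given in other comparisons beside these, Smad2 having been chosen after its values were seen. Alternatives were 2 smaller pseudocounts, 2 other filters on low values, 4 other scalings, 3 other fits, a replicate block and leaving out each library.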

Additional observations from a re-analysis of the deposited data

How the results depend on the processing

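Over 21 alternatives, 618 of 627 values of the 10 members kept their direction and their side of the threshold, 5 lost their call and 4 reversed. The reversed ones were Tgfb2 in Sting-/- DOX against WT DOX (-0.25 after median-ratio scaling, -0.22 after quantile normalization) and Ltbp1 in Sting-/- DOX against WT saline (-0.23 and -0.17 under the same scalings). Those scalings set the median of all genes near 0, and the cause of the unequal medians was not tested. The calls lost were Tgfbr3 and Inhba in Sting-/- DOX against WT DOX, as given with their values above, and Ltbp1 in Sting-/- DOX against WT saline, at 0.10 (adjusted p = 0.0974) with scaling without the 100 most abundant genes. Members called lower in Sting-/- DOX against WT DOX numbered 2 after median-ratio scaling, 2 after quantile normalization, 0 after scaling to TPM and 0 to 1 when each library was left out, the 0 being without WT DOX replicate 2. In Sting-/- DOX against WT saline they numbered 2 after either of the first 2 scalings.

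Over all genes, median-ratio scaling and quantile normalization called 3582 and 3461 genes higher in WT DOX against WT saline, where FPKM as deposited gave 5651, and 5109 and 5363 lower, against 2680. In Sting-/- DOX against WT saline they called 5493 and 5205 lower, against 3228. Of 42 counts of the pathway lists, 19 moved by over 1.5 times after median-ratio scaling, 17 after quantile normalization, 10 with scaling without the 100 most abundant genes, and 1 to 6 under each of the other settings. The shares of the 3 isoforms kept their direction under every alternative that could change them.

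Same-numbered libraries of different groups had correlated deviations of -0.032 to 0.104, with 1 of 9 pairs over 0.1, and a library correlated best with its own number in 4 of 18 cases, so the numbers were not taken as pairs. With a replicate block the members called stayed at 9, 9 and 10 in WT DOX against WT saline, Sting-/- DOX against WT DOX and Sting-/- DOX against WT saline, and 5607 genes were higher and 2640 lower in the first. Inhba could not be tested with a mean of at least 5 FPKM. The files give FPKM and no counts, so no counting interval could be given for low values such as those of Inhba in WT saline hearts, 0.27 to 0.32 FPKM.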
